A study of Mus musculus with 4 samples.

Results

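Klf2, Klf4 and Klf5 encode 3 zinc-finger transcription factors of the Krüppel-like family, and their transcripts were followed here across 4 libraries of mouse embryonic stem cells (mESC). They were taken by symbol from the 32285 genes of the deposited matrix, and each symbol matched 1 gene. Droplet single-cell RNA sequencing of transcript 3′ ends had been applied to E14tg2a.4 cells, a male mESC line (WT), and to the Srrm2 heterozygous gene-trap line CG0630 derived from it (Srrm2 hKO), with 2 labelled samples of each. Srrm2 encodes a large serine- and arginine-rich splicing protein, and the trap truncates 1 copy of the gene in all Srrm2 hKO cells, which come from a single line. All cultures were kept on gelatin with LIF and then moved to ESGRO medium, which holds LIF and no serum, for 24 h or 72 h by the labels of the series, whereas the study's methods give a different length for these single-cell cultures, the same for both lines.

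Every barcode of the joined matrix carries a library number from 1 to 4, and no source used here ties these numbers to the labelled samples. The libraries were therefore described by number, without a comparison of Srrm2 hKO with WT, a mean over replicates or a p-value between groups. Srrm2 itself stood at 387, 533, 238 and 356 unique molecular identifiers (UMIs) per 1e+06 UMIs of the library (CPM) in libraries 1 to 4. These levels were not used to tie a library to a sample. Pou5f1, which encodes the core pluripotency factor Oct4, was found in 92.7% to 98.2% of cells at equal depth and the label mESC was checked against it alone. Libraries 1 to 4 held 8118, 8514, 7893 and 7464 kept cells, with 166839268 to 200180473 UMIs per library and medians of 18378 to 21897.5 UMIs per cell. Of these cells, 211 had a barcode sequence that also occurred in another library. Without them the excess spread of the 3 genes and their pairwise r stayed within 95% intervals for the sampling of cells, which are not printed here.

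KLF2, KLF4 and KLF5 bind GC-rich and CACCC-type DNA through 3 C-terminal zinc fingers, and in mESC they act on many of the same enhancers as Oct4, Sox2 and Nanog. LIF acts through the kinase JAK1 and the transcription factor STAT3 on Klf4 and Klf5, whereas Klf2 is known to depend more on other inputs, and the protein KLF2 is destabilised by ERK signalling. The 3 factors can replace each other in part, and the loss of all of them ends self-renewal. KLF4 is also known as a reprogramming factor, and KLF5 for its role in the trophectoderm and inner cell mass of the blastocyst.

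The genes lie on 3 chromosomes, in GRCm38 coordinates of GENCODE M21. Klf2 spans chromosome 8, 72319033 to 72321656, on the plus strand. Klf4 spans chromosome 4, 55527143 to 55532466, on the minus strand, and Klf5 spans chromosome 14, 99298691 to 99315036, on the plus strand. RefSeq promoter sequences (GRCm38.p6) were at hand for Klf2 and Klf4 of the 3 genes. For these 2 genes, the 250 bases before each RefSeq start are shown 5′ to 3′ on the gene's own strand. Capitals mark GGGCGG, the core of the GC box that Sp and Klf proteins bind, on either strand. The Klf2 window is chr8:72318812-72319061 (+) and the Klf4 window is chr4:55532476-55532725 (−).
Klf2: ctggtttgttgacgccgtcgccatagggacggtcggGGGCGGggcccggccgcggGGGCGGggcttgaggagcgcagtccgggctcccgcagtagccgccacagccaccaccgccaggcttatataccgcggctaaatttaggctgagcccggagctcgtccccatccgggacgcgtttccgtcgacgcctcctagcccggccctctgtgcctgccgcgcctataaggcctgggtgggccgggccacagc
Klf4: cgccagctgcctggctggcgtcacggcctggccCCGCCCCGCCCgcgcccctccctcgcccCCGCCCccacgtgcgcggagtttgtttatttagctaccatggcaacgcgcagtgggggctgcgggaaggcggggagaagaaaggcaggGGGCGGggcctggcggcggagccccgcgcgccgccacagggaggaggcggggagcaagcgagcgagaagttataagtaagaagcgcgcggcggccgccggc

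The letters GGGCGG occurred 2 times in the Klf2 window and 4 times in the Klf4 window, where a pair of matches overlaps by a base, and at least once in 32.7% of 32851 promoters of the same length. CACCC, also searched on both strands, occurred 1 time in the Klf2 window, as its complement GGGTG, and in 52% of promoters, and was on neither strand of the Klf4 window. TTCNNNGAA, the general form of a STAT site, was in neither window and in 7.02% of promoters. Both windows were GC-rich, at 71.2% and 74% against a median of 52.4% over all promoters. A match of letters is a description and not a bound site.

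Library 1 had the highest and library 4 the lowest level of each of the 3 genes. Klf2 stood at 547, 444, 410 and 222 CPM in libraries 1 to 4, a range of 2.46-fold (95% interval 2.44 to 2.49). Klf4 stood at 167, 105, 107 and 48.5 CPM, a range of 3.44-fold (3.35 to 3.52). Klf5 stood at 271, 182, 200 and 158 CPM, a range of 1.72-fold (1.69 to 1.74). Libraries 2 and 3 lay between the extremes for each gene, and for Klf4 they did not differ beyond counting error, at a ratio of 1.02 (0.999 to 1.04). Every other pair of neighbours in the order of levels differed beyond counting error, by at least 1.08-fold. Intervals are exact Poisson intervals that cover counting error only. They leave out the spread between cells, and the spread between cultures was not measured.

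**Figure D1:**
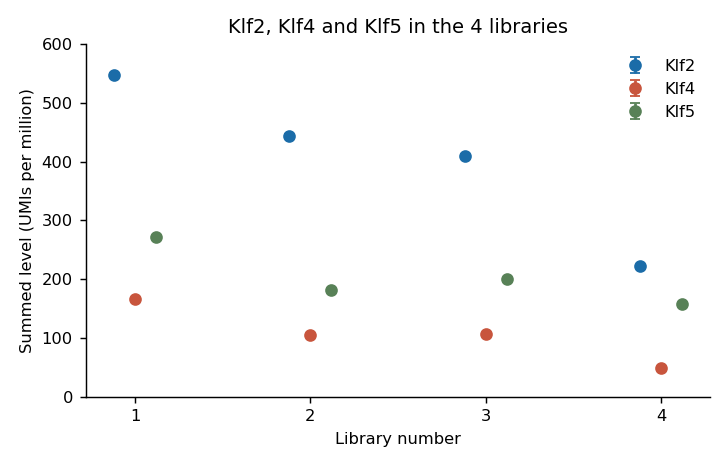
Summed level of Klf2, Klf4 and Klf5 in the kept cells of each library, in CPM, with exact 95% Poisson intervals that are mostly smaller than the points. Library 1 was highest and library 4 lowest for all 3 genes, and Klf4 libraries 2 and 3 nearly coincide.

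A range of at least 1.5-fold was common: all 3 genes passed it, as did 41% of 11099 genes tested. Klf2 and Klf4 also passed 2-fold, beside 16.3% of genes. Among all genes, ordered by range, Klf4 ranked 405, Klf2 ranked 1019 and Klf5 ranked 2979, against a median range of 1.42-fold. The order with library 1 highest and library 4 lowest was shared by 15.7% of genes tested. Without library 4 Klf2 ranged over 1.33-fold, Klf4 over 1.58-fold and Klf5 over 1.49-fold. Without library 1 the ranges were 2.00-fold, 2.21-fold and 1.27-fold, so that Klf5 narrowed most without library 1 and the others without library 4. Scaling by median-of-ratios size factors widened the ranges to 2.86-fold for Klf2, 3.98-fold for Klf4 and 1.99-fold for Klf5.

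The balance among the 3 genes differed between libraries. In their summed UMIs, Klf5 made up 24.9% to 27.9% in libraries 1 to 3 and 36.9% in library 4. Klf4 made up 16.9%, 14.4%, 15% and 11.3% in libraries 1 to 4, and Klf2 made up 51.8% to 60.7%. Each captured molecule gives 1 UMI whatever the transcript's length, so these are shares of captured molecules, and capture may differ between genes.

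Of the 26 Klf and Sp genes, 15 reached 10 CPM in at least 1 library and 5 stayed under 1 in every library. Klf9, which encodes a hormone-responsive repressor, came next to Klf2 and Klf5, at 164 to 207 CPM. Klf3, a repressor that recruits CtBP, was at 67.7 to 124, with library 1 highest and library 4 lowest. Klf6, Klf13, Sp1 and Sp3 lay between 32.4 and 72.9 CPM. Klf10, Sp2 and Klf7 ranged from 8.65 to 37.1, and Klf15, Klf16 and Sp5 from 4.03 to 15. Klf6 and Klf7 were highest in library 4, by 2.10-fold over library 2 for Klf6 and by 3.55-fold over library 1 for Klf7.

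Cell-to-cell spread was read after each cell had been thinned at random to 5000 UMIs, which left every kept cell in. Klf2 was then found in 89.3%, 78.8%, 74.3% and 49.1% of cells in libraries 1 to 4. A Poisson distribution with the same means gives 93.7%, 89.2%, 88.4% and 67.5%. Klf4 was found in 54.1%, 36.6%, 37.2% and 18.0% of cells, where Poisson gives 58.7%, 42.3%, 43.4% and 22.2%. Klf5 was found in 71.0%, 56.2%, 58.3% and 48.9% of cells, where Poisson gives 74.5%, 59.3%, 62.2% and 52.9%. Each gene was thus missing from more cells than even sampling of its mean would leave without it, in every library.

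The excess was plain for Klf2 in library 4, where 50.9% of cells had no Klf2 UMI and 4.34% had 5 or more, with up to 14 in a cell. At full depth, Klf2 was found in 97.5%, 92.6%, 87.8% and 68.1% of cells, Klf4 in 87.1%, 71.3%, 70.5% and 40.9%, and Klf5 in 96.6%, 92.4%, 91.9% and 86.2%. RNA free in the droplets adds UMIs to cells that do not express a gene, and no cluster here is known to lack these genes.

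**Figure D2:**
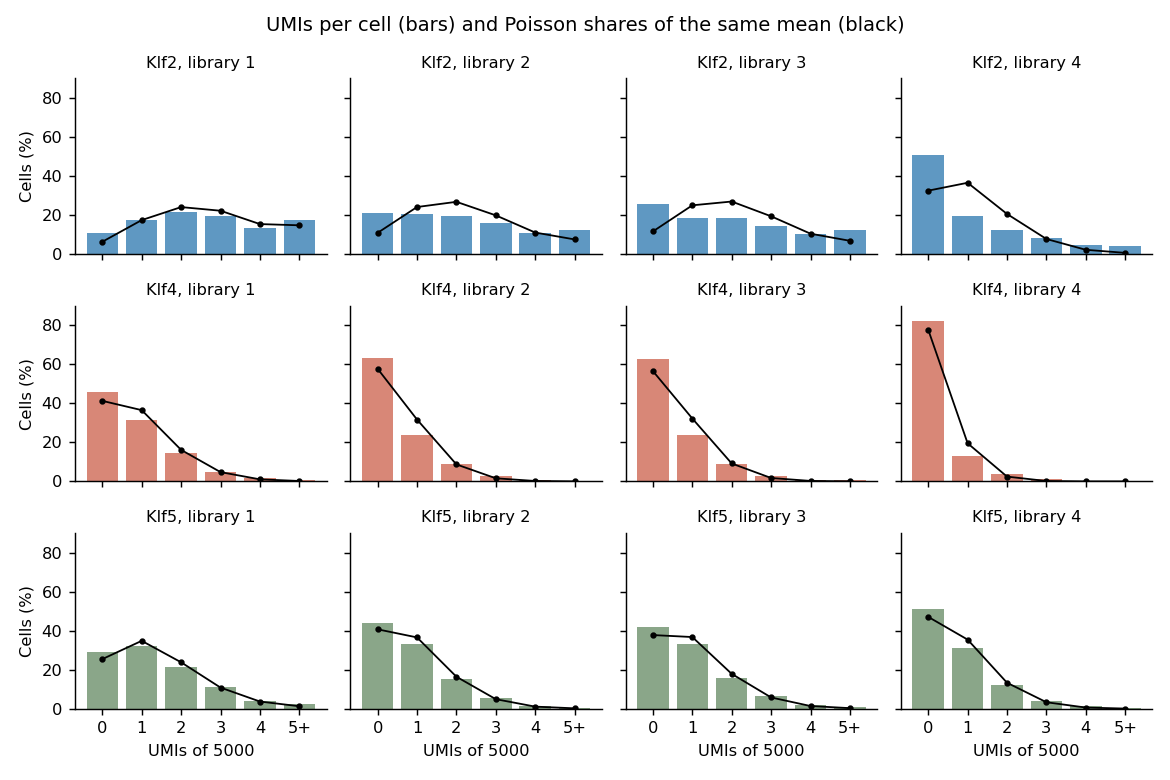
Share of kept cells (vertical axis, percent) with 0 to 4 or at least 5 UMIs (horizontal axis) of each gene in a draw of 5000 UMIs per cell, by library. Bars are the data and black points are Poisson shares of the same mean; Klf2 in library 4 has 50.9% of cells at 0, more than the Poisson share.

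Excess spread, the variance minus the mean over the squared mean, is 0 for a Poisson gene and does not grow with its level by counting alone. Klf4 had the largest of the 3 genes, at 0.342, 0.760, 0.862 and 2.17 in libraries 1 to 4. Klf2 had 0.131, 0.279, 0.394 and 1.00, and Klf5 had 0.142, 0.201, 0.234 and 0.385. For all 3 genes the value was lowest in library 1 and highest in library 4, and Klf2 lay above Klf5 in libraries 2 to 4. In library 1 these 2 genes changed order with the draw, at 0.127 for Klf2 and 0.125 for Klf5 in a second draw of 5000 UMIs.

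The median over the 5123 to 5352 genes with a mean of at least 0.1 UMI was 0.0818, 0.0829, 0.113 and 0.0981, and the 90th percentile was 0.30, 0.341, 0.493 and 0.431. Klf4 was above the 90th percentile in every library and ranked 395, 123, 265 and 55. Klf2 was above it in library 4 alone, where it ranked 155, and Klf5 ranked from 626 to 1592 and stayed below it. Pou5f1 was near even in its spread, at 0.0285 to 0.0809, and Srrm2 was at 0.0474 to 0.0763. Nanog ranged from 0.188 to 1.04 and Zfp42, the gene of the naive marker Rex1, from 0.202 to 1.04, both also highest in library 4. Tbx3 lay above Klf4 in every library, at 0.633, 5.63, 1.56 and 13.1, with a mean under 0.1 UMI in libraries 2 and 4. Esrrb lay below Klf4 in every library, at 0.000848, 0.213, 0.405 and 0.902.

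**Figure D3:**
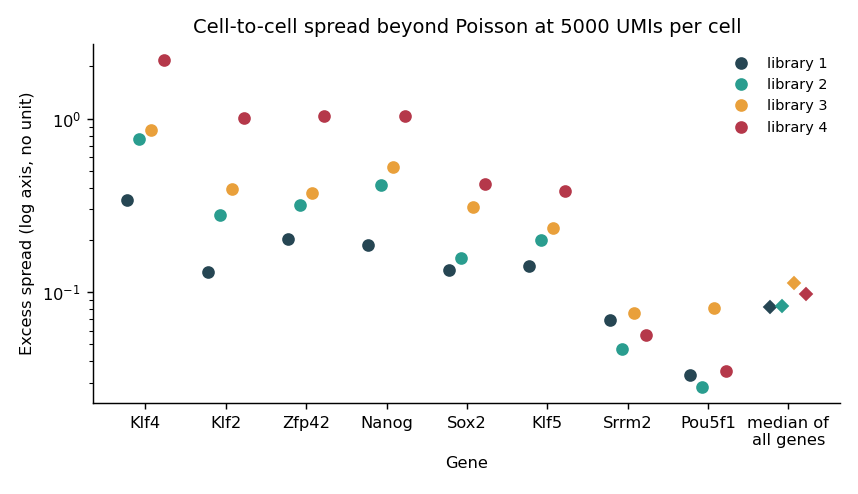
Excess spread of cell counts at 5000 UMIs per cell (log axis, no unit) for Klf4, Klf2 and Klf5 beside Zfp42, Nanog, Sox2, Srrm2 and Pou5f1, with 1 point per library, and the median of all ranked genes as diamonds. Of the genes shown, Klf4 lies highest in every library and reaches 2.17 in library 4. Srrm2 and Pou5f1 stay under 0.1.

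The 3 genes were found in the same cells more often than the product of their shares gives. All 3 were found together in 36.5%, 20.3%, 21% and 8.88% of cells in libraries 1 to 4, which is 1.07, 1.251, 1.30 and 2.06 times that product. None of the 3 was found in 2.81%, 9.84%, 10.8% and 28.0% of cells, or 1.97, 1.67, 1.60 and 1.31 times the product. Klf4 without the other 2 genes was rare, in 1.11% to 1.57% of cells, at 0.661, 0.459, 0.394 and 0.278 times the product. Klf5 alone was near the product, at 0.965 to 1.15 times, and reached 19.7% of cells in library 4.

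By joint detection over all cells of a library, Klf2 and Klf4 had the highest odds ratio of the 3 pairs. Klf4 was found in 56.0% of cells with a Klf2 UMI and in 38.4% of cells without it in library 1, and in 30.1% against 6.37% in library 4. Expressed as an odds ratio, joint detection was 2.04, 3.15, 4.22 and 6.32 in libraries 1 to 4. For Klf2 with Klf5 it lay between 1.42 and 1.69, and for Klf4 with Klf5 between 1.249 and 1.74.

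Pearson correlations over cells at 5000 UMIs were small and moved with the random draw. Klf2 and Klf4 had r of 0.0968, 0.158, 0.194 and 0.261 in libraries 1 to 4. Klf4 and Klf5 had r of 0.0795, 0.0878, 0.0888 and 0.103. Klf2 and Klf5 had r of 0.0581, 0.0909, 0.0329 and 0.115. In a second draw of 5000 UMIs the values were 0.0838, 0.148, 0.209 and 0.241 for Klf2 with Klf4, 0.0967, 0.102, 0.0829 and 0.0773 for Klf4 with Klf5, and 0.0311, 0.105, 0.0505 and 0.112 for Klf2 with Klf5. Klf2 with Klf4 was thus the highest pair in libraries 2 to 4 in both draws, the order in library 1 differed between draws, and the lowest value of Klf2 with Klf5 lay in library 3 in the first and in library 1 in the second. Spearman values lay between 0.0543 and 0.323 over all pairs and libraries. The cells of an r share a library and a depth. After the Poisson part of each variance had been removed, r was 0.389 to 0.603 for Klf2 with Klf4, 0.359 to 0.414 for Klf4 with Klf5 and 0.113 to 0.376 for Klf2 with Klf5. In library 1 this corrected value was higher for Klf4 with Klf5, at 0.409, than for Klf2 with Klf4, at 0.389. The pair Klf2 and Klf5 in library 3 moved from 0.0329 to 0.0571 on a log2(count + 1) scale.

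Partners were ranked among all other genes ranked in a library, by r in the first draw with the Poisson part left in. Klf2 was the partner of rank 5, 4, 3 and 2 for Klf4 in libraries 1 to 4. Klf4 was the partner of rank 4, 8, 4 and 9 for Klf5, and Klf2 of rank 24, 5, 149 and 4. In the other direction the ranks were lower: Klf4 was the partner of rank 15, 17, 35 and 18 for Klf2, and Klf5 of rank 77, 113, 828 and 187. For Klf4, Klf5 was the partner of rank 13, 38, 97 and 86. The median r over all ranked genes lay between −0.0107 and −0.000684 for the 3 genes. Srrm2 had r from −0.0609 to 0.00745 with the 3 genes. With the Poisson part removed, r of Klf4 with Nanog was 0.491, 0.520, 0.628 and 0.532 in libraries 1 to 4. This was above Klf4 with Klf2 in libraries 1 to 3. For Klf2 with Nanog it was 0.238, 0.574, 0.550 and 0.616, above Klf2 with Klf4 in libraries 2 to 4. For Klf5 with Nanog it was 0.335, 0.454, 0.170 and 0.247.

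Likeness was ranked over 4682 other genes by the lowest r of the 4 libraries, with the Poisson part left in. Poisson noise shrinks r more for genes with few UMIs. This order, and that of the opposed genes below, thus depends on level as well. For Klf4 the leading genes were Zfp42 (0.134 to 0.324), Sox2, which encodes a core pluripotency factor (0.122 to 0.198), Dppa5a, an RNA-binding pluripotency marker, Klf2 and Sod2, the mitochondrial superoxide dismutase. For Klf2 they were Dppa5a (0.161 to 0.475), Apoe, Rpl13, Tdh, the threonine dehydrogenase of mESC (0.119 to 0.412), and Rps27a. For Klf5 they were Zfp42 (0.0927 to 0.133), Klf4, Dppa5a, Sox2 and the heat-shock gene Hspb1. Zfp42, Dppa5a and Sox2 thus stood among the leading 5 genes of both Klf4 and Klf5.

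Genes opposed to the 3 in every library were ordered by their weakest negative r, and these overlapped as well. Pim2, a serine/threonine kinase gene, came first for Klf2 (−0.173 to −0.314) and for Klf4 (−0.112 to −0.190). Mdk, the growth factor midkine, came first for Klf5 (−0.0688 to −0.0904) and among the leading 3 for Klf2 and Klf4. Fabp5, a fatty acid carrier, was among the leading 3 for Klf2 and Klf5, Dnmt3b, a de novo DNA methyltransferase, for Klf4, and Rps27l for Klf5. By the strongest negative r of any library, Dnmt3b came last of 4682 genes for all 3, at −0.347 for Klf2, −0.210 for Klf4 and −0.149 for Klf5.

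To set levels against each other without using a molecule 2 times, cells were classed by their Klf2 UMIs in the draw of 5000, and levels were taken from their remaining UMIs. Klf4 then stood at 103, 156, 166 and 180 CPM in library 1 cells with 0, 1, 2 and at least 3 Klf2 UMIs. It stood at 52.4, 96.2, 121 and 128 in library 2, at 38.8, 110, 136 and 143 in library 3, and at 18.1, 60.0, 82.0 and 96.0 in library 4. The step from 0 to 1 Klf2 UMI was the largest in each library, and the values from 2 to at least 3 UMIs differed least in libraries 2 and 3.

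Between these classes, Klf5 differed by smaller folds than Klf4. Klf5 stood at 230 in library 1 cells without a Klf2 UMI and at 279 in those with at least 3, and at 142 and 189 in library 4. In library 3 the values were 184 without a Klf2 UMI and 211, 210 and 207 with 1, 2 and at least 3. Expressed as cells with over cells without a Klf2 UMI, the ratio was 1.66, 2.25, 3.41 and 4.29 for Klf4 and 1.20, 1.40, 1.13 and 1.252 for Klf5 in libraries 1 to 4.

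**Figure D4:**
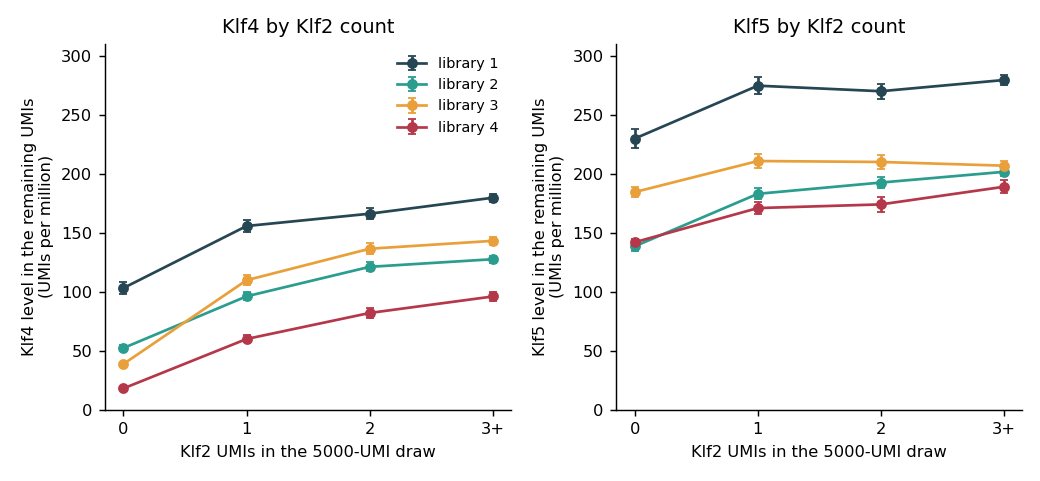
Klf4 (left) and Klf5 (right) levels in CPM, from the UMIs outside the draw, for cells with 0, 1, 2 or at least 3 Klf2 UMIs in the draw of 5000, by library, with exact 95% Poisson intervals. Klf4 goes from 18.1 to 96.0 in library 4 and from 103 to 180 in library 1, whereas Klf5 differs little after the first Klf2 UMI.

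Counted by how many of the 3 genes had a UMI in the draw, cells of library 4 went from 251 CPM with none to 1310 with all 3 for the 12 naive regulators. That list also holds Fgf4 and Dppa3. In library 1 the same list went from 446 to 1439. The 13 formative genes, which mark the stage after naive pluripotency, went the other way, from 1924 to 707 in library 4 and from 825 to 222 in library 1. Pou5f1 stood at 792, 833, 531 and 783 CPM with none and at 852, 785, 714 and 749 with all 3 in libraries 1 to 4, so that it was higher with all 3 in libraries 1 and 3 and lower in libraries 2 and 4. Median UMIs per cell were 20344.5, 21196, 20817.5 and 20786 with none and 17807, 21669, 18497 and 21227 with all 3.

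Cells without any of the 3 genes in library 3 carried much RNA of keratin and contractile genes, at 4951 CPM for the 12 genes, against 425 in cells with all 3. In library 1 the same list stood at 1555 against 167, and in library 4 at 942 against 493. The summed S genes and G2/M genes moved less, from 1670 to 1951 and from 2711 to 3082 in library 3. The part of cell class in the correlations is given with the clusters.

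A gene was called between cells with and without a UMI of a factor when it differed at least 1.5-fold the same way in every library, in the remaining UMIs. For Klf2, 175 of 10683 genes were higher (1.64%) and 524 were lower (4.9%). Klf4 was among the higher genes, at log2 ratios of 0.73, 1.17, 1.77 and 2.10 in libraries 1 to 4, and Klf5 was not called, at 0.18 to 0.49. For Klf4, 0 genes were higher (0%) and 159 were lower (1.49%), of which 158 were also lower for Klf2 (99.4% of the Klf4 genes and 30.2% of the Klf2 genes). With classes from a draw of 10000 UMIs, 501 genes were higher for Klf2 and 6 for Klf4, and at 2-fold 1 gene was higher for Klf2. Without library 1 the counts were 339 higher for Klf2 and 5 higher and 327 lower for Klf4. For Klf5, 0 genes were called either way (0% and 0%). The 3 splits separate cells by different amounts of the splitting gene itself, by 1.87 to 4.73 times for Klf2, 1.61 to 3.87 times for Klf4 and 1.26 to 1.54 times for Klf5, so these counts cannot be set against each other as sizes of effect.

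Of the lists, that of naive regulators, which also holds Fgf4 and Dppa3, had the largest share of genes called higher with Klf2. For the Klf2 split, 9 of 12 were called higher, beside 1.64% of all genes tested, and Fgf4 and Dppa3 were not. Zfp42 had log2 ratios of 0.75, 1.13, 1.64 and 1.88, Esrrb, an orphan nuclear receptor, 0.81, 1.20, 1.63 and 1.97, and Prdm14, a repressor of FGF signalling, 0.72, 1.46, 1.963 and 2.24. Tfcp2l1, Tbx3, Nr5a2, Nr0b1, Gbx2 and Tcl1 were the others. Nanog was not called, since its log2 ratio of 0.56 in library 1 was short of the rule, with 1.00, 1.34 and 1.39 in libraries 2 to 4. For the Klf4 split none was called, but 11 of 12 had a positive ratio in every library, as had 11 of 12 for Klf5, where Zfp42 had 0.17 to 0.45. Over all genes tested, 2389, 2002 and 1465 of 10683 had positive ratios in every library for Klf2, Klf4 and Klf5, and 4599, 3748 and 2141 had negative ratios in every library.

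Formative genes lay in part on the other side. Of 11 tested, 8 had negative ratios in every library for Klf2 and 8 for Klf4, beside 4599 and 3748 of 10683 genes. Dnmt3b, Pou3f1, Sox4 and Sox11 were lower in cells with a Klf2 UMI, 4 of 11 tested beside 4.9% of all genes, and the same 4 were lower in cells with a Klf4 UMI, beside 1.49%. Pou3f1, a neural and epiblast POU factor, had log2 ratios of −3.21, −2.19, −2.62 and −1.49 for Klf2 and −2.22, −1.83, −2.42 and −1.66 for Klf4. Dnmt3b had −0.92 to −1.502 for Klf2 and −0.72 to −0.90 for Klf4. For Klf5 none of the 11 was called, and 9 had negative ratios in every library, beside 2141 of the 10683 genes tested, and Pou3f1 had −0.10 to −0.69.

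Genes of keratin filaments and the contractile apparatus were called lower in 9 of 11 tested for Klf2, beside 4.9% of all genes, and in 8 of 11 for Klf4, beside 1.49%, with Krt8 at −2.11 to −4.85 and −1.55 to −3.02. For Klf5 0 of 11 were called, as were 0 of all genes tested, and 2 were negative in every library, which is near the share of 2141 in 10683 over all genes. Krt8 had log2 ratios of −0.41, −0.17, 0.05 and 0.91 in cells with a Klf5 UMI in libraries 1 to 4, so its sign differed between libraries. Krt19 in the Klf5 split was at −0.25, 0.26, 0.20 and 1.39.

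Of 13 genes of the LIF pathway, 8 had positive and 4 had negative log2 ratios in every library for Klf2, beside 2389 and 4599 of the 10683 genes tested, with medians of 0.16, 0.21, 0.25 and 0.26 against −0.07, −0.07, −0.09 and −0.07 over all genes. Among them, 2 were called higher for Klf2, beside 1.64% of all genes tested. These were Gbx2 and Tfcp2l1, which are on the list of naive regulators as well. None was called higher for Klf4 or Klf5, as was no gene of all those tested. Stat3 had log2 ratios of 0.01 to 0.16 for Klf2, 0.06 to 0.18 for Klf4 and 0.05 to 0.16 for Klf5. The receptor gene Lifr reached 1.01 in library 4 for Klf2 without being called, and Socs3, the feedback inhibitor, had 0.15 to 0.45.

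Beside 1.64% of all genes higher and 4.9% lower for Klf2, the other lists gave these calls. In the FGF and ERK list, 2 of 14 were called lower for Klf2, Dusp4 and Dusp6, phosphatase genes that ERK signalling induces, and Dusp4 for Klf4. Of 8 DNA methylation genes, Dnmt3l was higher, and Dnmt3b and Tdg were lower for Klf2. Klf6 and Klf7 were lower for Klf2 among 18 Klf and Sp genes tested, with Klf7 at −1.14 to −1.74. In the general pluripotency list Sox2 alone of 6 was called, for Klf2, at 0.61 to 1.14. Of 3 trophectoderm genes tested, Tfap2c was higher and Krt7 lower for Klf2. None of the 14 S genes or 14 G2/M genes was called for any of the 3 factors, and no gene of the primitive endoderm, primed or streak, two-cell-like and fibroblast lists had the counts to be tested.

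Cells were then clustered with the 3 genes removed from the variable genes, so that their levels in the clusters were not used to make them, although genes that vary with them were. Of 7 clusters, clusters 1 to 5 held 2610 to 13439 cells each. Cluster 1 lay in libraries 1 and 3 and was led by Slc11a1, Catip and Catsperz. Cluster 2 lay almost wholly in library 2 (Spic, Gm38414 and Sgo2b) and cluster 4 in library 4 (Gm45752, Plcd1 and Rhox6). Marker sums of clusters used shorter lists of naive, formative, and keratin and contractile genes than the sums above, so the values cannot be set against those. Naive regulators summed to 987 to 1119 CPM in clusters 1, 2 and 4. Cluster 3, from libraries 2 and 4, was led by Spon1, Fgf5 and Slc35d3 and had formative genes at 1655 and naive regulators at 191 CPM. Cluster 5, mostly from libraries 1 and 3, was led by Gzme, Ctla2a and Acta2, with keratin and contractile genes at 2669 and naive regulators at 221. No fitting of batches was made, so a cluster found in 1 library may reflect that library.

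Within each library, Klf2 and Klf4 were several-fold higher in the cluster rich in naive regulators. In library 1 Klf2 stood at 581 CPM in cluster 1 and 132 in cluster 5, and Klf4 at 178 and 30.5. In library 3 Klf2 stood at 549 and 121 and Klf4 at 146 and 27.5 in the same clusters. In library 2 Klf2 stood at 526 in cluster 2 and 129 in cluster 3, and Klf4 at 127 and 21.2. In library 4 Klf2 stood at 408 in cluster 4 and 73.2 in cluster 3, and Klf4 at 93.1 and 11.9. The folds were 4.07 to 5.57 for Klf2 and 5.30 to 7.82 for Klf4, and Klf4 had the larger fold in each library for these pairs of clusters.

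Klf5 was far more even across the same clusters. It stood at 280 and 168 CPM in clusters 1 and 5 of library 1, 208 and 183 in library 3, 199 and 119 in clusters 2 and 3 of library 2, and 181 and 138 in clusters 4 and 3 of library 4. These folds were 1.66 (1.59 to 1.74), 1.14 (1.11 to 1.16), 1.67 (1.62 to 1.72) and 1.31 (1.28 to 1.35). In library 4, where 80 cells fell in cluster 5, Klf5 did not differ beyond counting error between clusters 4 and 5, at a ratio of 0.928 (0.840 to 1.03). Klf2 was 10.1-fold (8.15 to 12.7) and Klf4 4.67-fold (3.44 to 6.52) higher in cluster 4. The 80 cells held 83 Klf2 UMIs and 41 Klf4 UMIs, with excess spread of 1.85 and 9.24. The intervals leave out this spread between cells and are therefore too narrow for the sampling of cells. Klf5 exceeded Klf2 in CPM in cluster 5 and in cluster 3 of library 4, and lay below it in clusters 1, 2 and 4.

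A fold of at least 2 between these clusters was met by Klf2 and Klf4 in all 4 libraries and by Klf5 in none, beside 8.46% of genes in library 1, 5.48% in library 2, 5.82% in library 3 and 4.59% in library 4. By fold, Klf4 ranked 87, 23, 56 and 11 among 11531 to 12030 genes in libraries 1 to 4. Klf2 ranked 207, 129, 107 and 48, and Klf5 ranked 997 to 3070. At equal depth the lowest share of cells with a Klf4 UMI was 4.03%, in cluster 3 of library 4, against 33.5% in cluster 4 of that library. Klf2 was found in 19.6% and 82.6% and Klf5 in 41.5% and 57.1% of the same cells. Median UMIs per cell over all libraries were 22140 in cluster 3, 21118 in cluster 4 and 21703.5 in cluster 2. They differed more between cluster 5, at 24155.5, and cluster 1, at 18307.

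**Figure D5:**
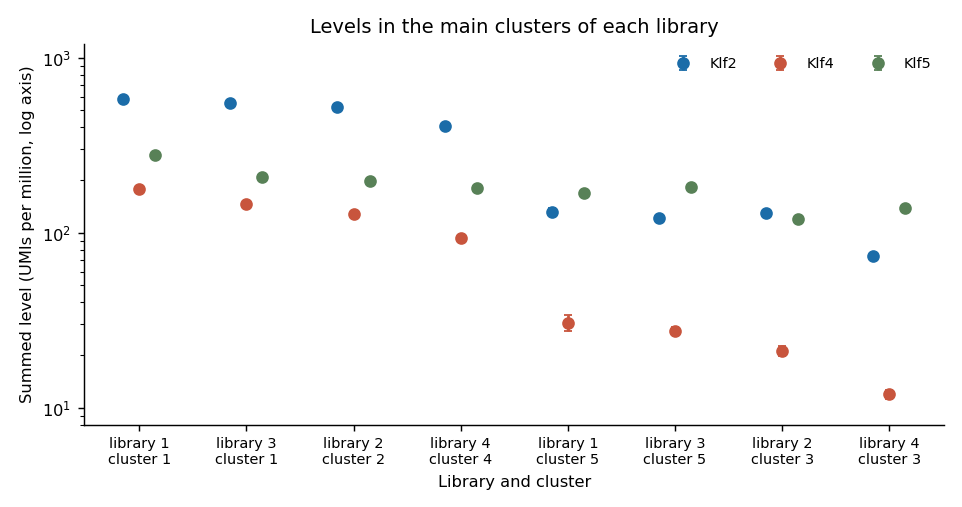
Summed levels of Klf2, Klf4 and Klf5 (CPM, log axis) in the main clusters of each library, with exact 95% Poisson intervals. Clusters 1, 2 and 4 are on the left and clusters 5 and 3 on the right; Klf4 falls to 11.9 in cluster 3 of library 4 while Klf5 stays between 119 and 280 throughout.

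Levels also differed between the clusters rich in naive regulators. Klf2 stood at 581 and 549 CPM in cluster 1 of libraries 1 and 3, 526 in cluster 2 of library 2 and 408 in cluster 4 of library 4. Klf4 stood at 178, 146, 127 and 93.1 in the same order, and Klf5 at 280, 208, 199 and 181. Library 4 thus remained the lowest, and library 1 the highest, for each gene among these clusters. The small clusters 6 (97 cells) and 7 (52 cells, with two-cell-like genes at 351 CPM) had Klf4 at 146 (125 to 169) and 75.5 (59.6 to 94.3).

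Differences between clusters took up 29.5%, 49.4%, 51.6% and 61.4% of the excess variance of Klf2 in libraries 1 to 4. For Klf4 the shares were 12.5%, 22.9%, 25.5% and 34.8%, and for Klf5 they were 7.09%, 16.7%, 3.14% and 8.35%. Most of the excess of Klf4 and Klf5 therefore lay within clusters. Of the covariance of Klf2 with Klf4, 49.3%, 71.0%, 72.3% and 76.1% lay between clusters, and of that of Klf4 with Klf5, 22.8% to 46.3%. For Klf2 with Klf5 the share was 51.6% to 109.8%. It passed 100% in library 3, where the covariance within clusters, pooled over clusters, was below 0. Pearson r of this pair in library 3 was −0.0153 in cluster 1 and 0.0613 in cluster 5. In cluster 1 of libraries 1 and 3, cluster 2 of library 2 and cluster 4 of library 4, excess spread was 0.0860 to 0.176 for Klf2, 0.285 to 0.692 for Klf4 and 0.126 to 0.187 for Klf5. In the 164 cells of library 4 in cluster 2 it was 0.232, 1.35 and 0.222. In cluster 5 of libraries 1 and 3 and cluster 3 of libraries 2 and 4 it was 1.40 to 2.72 for Klf2, 1.90 to 4.37 for Klf4 and 0.358 to 0.663 for Klf5.

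Within the clusters rich in naive regulators, Klf4 differed little between cells with and without a Klf2 UMI. The ratio of Klf4 in the remaining UMIs of cells with over cells without a Klf2 UMI was 1.02 (0.969 to 1.08) in cluster 1 of library 1, 1.14 (1.07 to 1.21) in cluster 1 of library 3, 1.08 (1.02 to 1.14) in cluster 2 of library 2 and 1.20 (1.12 to 1.30) in cluster 4 of library 4. The split itself was weak there: Klf2 in the remaining UMIs differed by 1.18, 1.34, 1.31 and 1.43 times between the same classes. Pearson r of Klf2 with Klf4 was 0.0467 to 0.0538 in these clusters, and 0.195 to 0.243 with the Poisson part removed.

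Within clusters 5 and 3, where both genes were low, Klf2 and Klf4 went together. The Klf4 ratio was 3.98 (3.13 to 5.11) in cluster 5 of library 1, 3.58 (3.19 to 4.02) in cluster 5 of library 3, 3.01 (2.58 to 3.52) in cluster 3 of library 2 and 4.09 (3.59 to 4.66) in cluster 3 of library 4. Klf2 itself differed by 3.8 to 5.07 times between these classes. In cluster 3 of library 4, Klf4 stood at 29.3 CPM in 757 cells with a Klf2 UMI and at 7.16 in 3110 cells without. Both values were below the 93.1 of cluster 4. Without cells over 2 times their library's median UMI count, which would hold doublets of large cells, the 4 ratios were 3.61, 3.91, 2.56 and 4.44.

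Cells were also split by Klf5. In cluster 1 of libraries 1 and 3, cluster 2 of library 2 and cluster 4 of library 4, cells with a Klf5 UMI had 1.10 to 1.23 times the Klf4 of cells without, and 0.993 to 1.03 times the Klf2. Klf5 itself differed by 1.20 to 1.30 times between these classes. In cluster 2 of library 4 the ratios were 1.37 (1.05 to 1.80) for Klf4 and 1.12 (0.9745 to 1.29) for Klf2. In clusters 5 and 3, cells with a Klf5 UMI had 1.19 to 1.41 times the Klf2 and 1.08 to 1.83 times the Klf4, and the Klf4 ratio in cluster 5 of library 1, 1.08 (0.862 to 1.35), was within counting error of 1. Pearson r of Klf2 with Klf5 was −0.0153 in cluster 1 of library 3 and between 0.0180 and 0.0313 in cluster 1 of library 1 and in clusters 2 and 4. In the same clusters r of Klf4 with Klf5 was 0.0494 to 0.0843. With the Poisson part removed it was 0.289 to 0.479, above the corrected values of both other pairs in each of these clusters. The corrected value of Klf2 with Klf5 was −0.0751 to 0.176 there. These values within clusters come from 1 draw.

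Klf4 also differed with the depth and mitochondrial share of cells. In the tertile of cells with fewest UMIs Klf4 stood at 207, 116, 140.3 and 52.8 CPM in libraries 1 to 4, and in the tertile with most at 148, 97.3, 86.7 and 44.3. Between the same tertiles Klf2 went from 480.5 to 355 in library 3 and from 222 to 218 in library 4, and Klf5 from 280 to 266 in library 1 and from 141 to 168 in library 4. Cluster 5, low in Klf2 and Klf4, had the highest median UMIs of clusters 1 to 5 and held 26.1% of library 3 cells. From the lowest to the highest tertile of mitochondrial share, Klf4 was higher in every library, from 148 to 181 in library 1 and from 38.4 to 64.8 in library 4. From the lowest to the highest tertile of S genes, Klf4 went from 163, 102, 93.1 and 45.3 CPM in libraries 1 to 4 to 164, 105, 113 and 51.6. By G2/M genes it went from 183, 112, 115 and 47.5 to 155, 99.5, 99.4 and 48.2. Whether cell size, RNA content or cell state sets these differences was not tested.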

How the data were processed

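Single-cell RNA sequencing counts of 4 samples were deposited by the authors as 1 joined matrix of whole UMI counts, made with Cell Ranger 6.1.2 on mm10. Of 41142 barcodes, 31989 were kept: UMI and gene numbers at least the library mean minus 1 SD and mitochondrial share at most 10%. No doublet caller was run; an alternative left out 1615 cells over 2 times their library's median. Columns of other samples numbered 0. Members and gene lists were chosen with earlier results of these data known. Cells were thinned to 5000 UMIs (alternative 10000) with Python 3.11.15, numpy 2.4.6 and scipy 1.17.1, and clustered with leidenalg 0.10.2 (2000 variable genes less the members, 20 components, 20 neighbours, resolution 0.2). Genes were named from the lists, as the 5 most alike and 3 most opposed by their weakest r over libraries, or as the 3 leading genes of a cluster by fold. Tested genes had at least 200 counts. Since libraries were tied to no sample, no group test was made. The intervals printed (95%, exact Poisson) cover counting error only and leave out the spread between cells. Excess spread, corrected r and the fold calls were tested on simulated data with classes set at random. The clustering, the shares between clusters and the splits by a UMI were not.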

Additional observations from a re-analysis of the deposited data

Results flagged for a closer look

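Among the barcodes left out, those with a mitochondrial share over 10% are not in the values of the report, and the 3 transcripts were found in them well above the level that 3 counts would give. Klf2 stood at 553, 432, 532 and 247 CPM (UMIs per 1e+06 UMIs) in these barcodes of libraries 1 to 4. Klf4 stood at 160, 91.9, 127 and 48.3 CPM, and Klf5 at 284, 179, 234 and 158. The barcodes numbered 1028, 2441, 1191 and 1870, with median UMIs of 2601.5, 3636, 3152 and 2967.5, below the lowest kept cell of each library (8284, 6464, 7313 and 5680 UMIs). As in the kept cells, library 1 was highest and library 4 lowest for each gene. For Klf2, though, the intervals of library 1 (529 to 578) and library 3 (511 to 555) overlapped in these barcodes.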

How the results depend on the processing

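No paired analysis was possible because the library numbers were tied to no labelled sample. The range between libraries was 2.50-fold for Klf2, 3.53-fold for Klf4 and 1.78-fold for Klf5 as a mean over cells, and 2.86-fold, 3.98-fold and 1.99-fold with median-of-ratios size factors. Leaving out each library in turn gave 1.33 to 2.46-fold, 1.58 to 3.44-fold and 1.27 to 1.72-fold. The largest cluster was cluster 1 in libraries 1 and 3, cluster 2 in library 2 and cluster 3 in library 4. In these clusters alone, the highest excess spread was 2.72, 4.37 and 0.663 for Klf2, Klf4 and Klf5, each in library 4. In libraries 1 to 3 it was lower than over all cells for each gene, at 0.0860, 0.109 and 0.127 for Klf2. The lowest r in these clusters was 0.0467 for Klf2 with Klf4, −0.0153 for Klf2 with Klf5 (library 3) and 0.0297 for Klf4 with Klf5. At 10000 UMIs the lowest r was 0.139 for Klf2 with Klf4 and 0.115 for Klf4 with Klf5, and on a log2 scale 0.0571 for Klf2 with Klf5. The fold between the highest and the lowest cluster over all 4 libraries, which also holds differences between libraries, was 14.4 for Klf2 (8.64 at resolution 0.4), 15 for Klf4 (8.93 at resolution 0.1) and 2.35 for Klf5. Without cells over 2 times the median UMI count it was 21.9 for Klf4 and 2.46 for Klf5. The 14.4 set cluster 1 of library 1, at 581 CPM, against cluster 5 of library 4, at 40.4 CPM from 80 cells and 83 UMIs. Genes higher with a Klf2 UMI numbered 580 at a lower fold limit of 5 to 4, 1 at 2-fold, 501 with a draw of 10000 and 195 to 339 with a library left out, and lower genes 1228 at the lower limit and 195 at 2-fold. For Klf4, 14 were higher and 378 lower at the lower limit, 44 lower at 2-fold and 6 higher with a draw of 10000, with 0 to 5 higher and 160 to 327 lower with a library left out. For Klf5, 1 was higher and 13 lower at the lower limit, 1 lower with a draw of 10000 and 0 to 3 lower with a library left out. Except where a range, cluster or draw was itself the change, the cause was not tested.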
